A study of Mus musculus with 30 samples.

Results

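Toll-like receptors are the membrane receptors through which microglia and other phagocytes sense microbial products and nucleic acids, and 10 genes of the family (Tlr1 to Tlr9 and Tlr13) are described here out of 38031 genes in the count table. The 10 were chosen as the named members of the family, with transcripts summed per gene, and not by their values. The data were RNA-seq counts from 30 libraries of primary microglia prepared from the brains of C57BL/6 mice at postnatal day 21. Microglia were wild type or carried a knockout of Lrrk2 (Lrrk2-/-), the gene for a large kinase that is linked to Parkinson's disease, and were left as controls, given lipopolysaccharide (LPS) or given fibrils of α-synuclein. The 6 groups held 5 wild-type control, 6 wild-type LPS, 4 wild-type fibril, 6 knockout control, 4 knockout LPS and 5 knockout fibril libraries. The sources used here give no dose, duration or sex, and do not say whether the libraries of 1 group were separate cultures or animals; p-values therefore measure the spread between these libraries, which may be technical.

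Each receptor reads its ligand with leucine-rich repeats and signals through a cytoplasmic TIR domain. Tlr2 works at the cell surface as a pair with Tlr1 or Tlr6 and binds bacterial lipopeptides, Tlr4 binds LPS together with the co-receptors Ly96 (MD-2) and Cd14, and Tlr5 binds flagellin. Tlr3, Tlr7, Tlr8, Tlr9 and Tlr13 sit in endosomes, where Tlr3 reads double-stranded RNA, Tlr7 single-stranded RNA, Tlr9 unmethylated DNA and Tlr13 bacterial ribosomal RNA. The adaptor Myd88 serves all of them except Tlr3, which uses Ticam1 (TRIF); Tlr4 uses both. These routes end in NF-κB and in interferon regulatory factors such as Irf7.

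Library totals ran from 8936310 to 35677005 counts, with a median of 20432234. Of the 10 receptors, 9 passed the filter on low counts, and Tlr5 did not: it had 42 counts over all libraries and 0 in 16 of them. Levels below are library-size-scaled counts (CPM) corrected by edgeR's TMM factors, and tests are edgeR's quasi-likelihood F-test with Benjamini-Hochberg adjustment over 14346 genes; a gene is called at an adjusted p under 0.05. Lrrk2 was lower in each knockout library than in any wild-type library, at 0.731 to 4.68 CPM against 6.87 to 16.7, and was counted in all knockout libraries. The microglial markers Csf1r (737.7 to 2033.1 CPM) and C1qa (768.2 to 1790.1) were abundant in all libraries, whereas P2ry12 (0.628 to 14.4 CPM) and Tmem119 (a median of 7.36 CPM) were low and Siglech was at or near 0 in these libraries. Microglial markers moved with fibrils: P2ry12 was lower against control (-1.88 ± 0.4 in wild type and -2.27 ± 0.37 in knockout) and against LPS in both genotypes. In wild type C1qa was lower (-0.46 ± 0.16) and Csf1r (0.56 ± 0.16) and Itgam (0.6 ± 0.22) higher with fibrils than in controls, and in knockout Cx3cr1 was lower (-1.3 ± 0.28). Their part in the receptor results was not tested. In bulk RNA, fewer cells of a type and less RNA per cell cannot be told apart.

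One feature of the libraries touches the wild-type results. The 7 fibroblast and leptomeningeal markers summed to 0.624 to 1.11 CPM in the wild-type fibril libraries, to 1.17 CPM in wild-type control replicate 6 and to 0.504 CPM in wild-type LPS replicate 6, against 18.9 to 122.5 CPM in the other wild-type libraries. In the knockout fibril libraries the same sum was 18.3 to 71.4 CPM. The 7 astrocyte markers summed to 16.3 to 23.5 CPM in the wild-type fibril libraries and to 59.8 to 296.4 CPM in the knockout fibril libraries. Values of wild-type control replicate 6 are therefore given beside the wild-type fibril results; the part of these markers in the results was not tested. Results are also given without 7 libraries that stand apart in RNA composition, total count or markers, a choice made after the data were seen: replicates 1, 4 and 6 of the knockout controls and 5 of the knockout fibril group, and in wild type replicate 6 of the controls and replicates 1 and 6 of the LPS group. Neutrophil markers summed to 6.87 CPM at most, highest in the wild-type fibril libraries, and lymphocyte markers to 4.38 CPM at most. The 8 markers of border and peripheral macrophages were far higher, with sums of 1039.3 to 1774.6 CPM over all libraries. Of these 8, Mrc1 was called lower with fibrils than in controls in both genotypes, and Ms4a7 was called higher in wild type.

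Sequences ahead of RefSeq starts are shown for 4 receptors that were called in both genotypes under 1 treatment. The stretches are the 250 bases upstream of RefSeq starts on build GRCm38.p6, read 5′ to 3′ on the gene's strand, and capitals mark matches to the motifs that were searched on both strands. The motifs were the NF-κB consensus and the interferon-stimulated response element core (each in an ambiguous form), the AP-1 site TGANTCA and the PU.1 core GAGGAAG, and they occur in 3.9%, 2.98%, 6.75% and 10.6% of 32851 promoters of the same length. Tlr2 (chr3:83841609-83841858, minus strand) is printed because it rose with LPS in both genotypes, Tlr1 (chr5:64933559-64933808, minus strand) and Tlr6 (chr5:64959167-64959416, minus strand) because they rose with fibrils, and Tlr9 (chr9:106222348-106222597, plus strand) because it fell with fibrils.
Tlr2: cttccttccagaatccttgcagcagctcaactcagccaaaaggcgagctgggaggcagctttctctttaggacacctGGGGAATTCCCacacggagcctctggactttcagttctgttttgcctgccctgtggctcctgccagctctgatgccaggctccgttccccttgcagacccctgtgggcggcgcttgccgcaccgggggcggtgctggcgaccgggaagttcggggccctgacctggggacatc
Tlr1: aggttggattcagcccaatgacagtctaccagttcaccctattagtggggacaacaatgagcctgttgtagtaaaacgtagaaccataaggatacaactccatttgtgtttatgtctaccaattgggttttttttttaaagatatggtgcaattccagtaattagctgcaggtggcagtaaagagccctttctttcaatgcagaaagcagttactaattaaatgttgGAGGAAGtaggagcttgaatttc
Tlr6: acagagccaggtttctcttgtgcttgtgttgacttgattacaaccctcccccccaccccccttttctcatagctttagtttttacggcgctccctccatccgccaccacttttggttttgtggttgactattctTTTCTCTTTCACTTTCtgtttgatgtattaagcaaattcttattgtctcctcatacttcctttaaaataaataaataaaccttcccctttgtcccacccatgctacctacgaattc
Tlr9: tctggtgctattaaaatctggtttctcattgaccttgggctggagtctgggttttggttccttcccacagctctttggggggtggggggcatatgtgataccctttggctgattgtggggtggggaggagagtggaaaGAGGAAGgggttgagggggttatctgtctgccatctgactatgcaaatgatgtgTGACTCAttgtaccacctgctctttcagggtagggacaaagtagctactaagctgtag
Positions are counted from the RefSeq start, which can lie inside the annotated gene. In Tlr2 the capitals hold a pair of overlapping NF-κB matches, between -173 and -163. In Tlr6 they hold a pair of overlapping interferon-response matches on the opposite strand, between -116 and -101. In Tlr9 the first run is the PU.1 core at -112 to -106 and the second the AP-1 site at -58 to -52, and in Tlr1 the run is the PU.1 core at -23 to -17. Tlr1 and Tlr6 each have a second RefSeq start whose upstream stretch held none of the motifs, so for both the stretch with matches is the one printed. For Tlr2 the printed stretch lies partly inside the annotated gene (83836272 to 83841767). For Tlr1 the printed stretch lies at the start of the annotated gene. For Tlr6 it lies inside the annotated gene (64952031 to 64960097), and the stretch at the gene's start (64960049-64960298) is the one without a match. Among the other receptors, Tlr3 had an NF-κB match at -211 to -202 and Tlr13 a PU.1 core at -83 to -77, while the stretches of Tlr8 and Tlr5 held no match; Tlr4 and Tlr7 were not searched. The Tlr3 stretch (45410381-45410630) lies inside the annotated gene (45395665 to 45411080). The Tlr13 stretch (106143025-106143274) lies partly inside its own (106143204 to 106160493). All of these are matches of letters in a window and were not tested as binding sites.

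Compared per length, as TPM (shares of length-corrected counts), Tlr13 and Tlr7 were the most abundant receptor transcripts in wild-type control microglia, at 126.5 ± 10.7 and 125.3 ± 19.6 TPM (SD, n = 5). Tlr2 (93.5 ± 18.8), Tlr8 (89.5 ± 9.53) and Tlr4 (87.9 ± 9.53) followed, and neighbours among these 5 genes overlapped in their ranges. Tlr1 lay below Tlr4 with no overlap, at 37.5 ± 14.9 TPM. Tlr9 (13.9 ± 4.92), Tlr6 (7.99 ± 0.784) and Tlr3 (5.62 ± 1.18) were scarce, again with overlapping neighbours, and Tlr5 stood at 0.0435 ± 0.0364 TPM. Knockout controls began with the same pair, Tlr13 at 146.7 ± 38.6 and Tlr7 at 131.0 ± 53.1 TPM (n = 6), whose ranges overlapped.

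Treatment changed the order. With LPS, Tlr2 became the first receptor, at 297.6 ± 34.1 TPM in wild type (n = 6) and 274.7 ± 19.5 in knockout (n = 4), above the next receptor in each library of both groups. Its share of the summed receptor TPM went from 15.8% ± 1.97 to 37.9% ± 4.47 in wild type and from 15.2% ± 4.51 to 36.9% ± 1.94 in knockout. With fibrils, Tlr1 reached 55.2 ± 3.52 TPM in wild type (n = 4) and 77.4 ± 28.9 in knockout (n = 5), while Tlr9 dropped to the place above Tlr5, at 4.0 ± 0.417 and 3.86 ± 3.99 TPM. The summed TPM of the family was 587.7 in wild-type controls (527.3 to 664.2), 788.8 with LPS (641.5 to 888.2) and 572.4 with fibrils (529.2 to 591.1). In knockout it was 591.6 (432.5 to 744.0), 744.1 (674.0 to 779.6) and 487.4 (391.2 to 599.7), so that the LPS and fibril ranges did not overlap in either genotype.

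**Figure D1:**
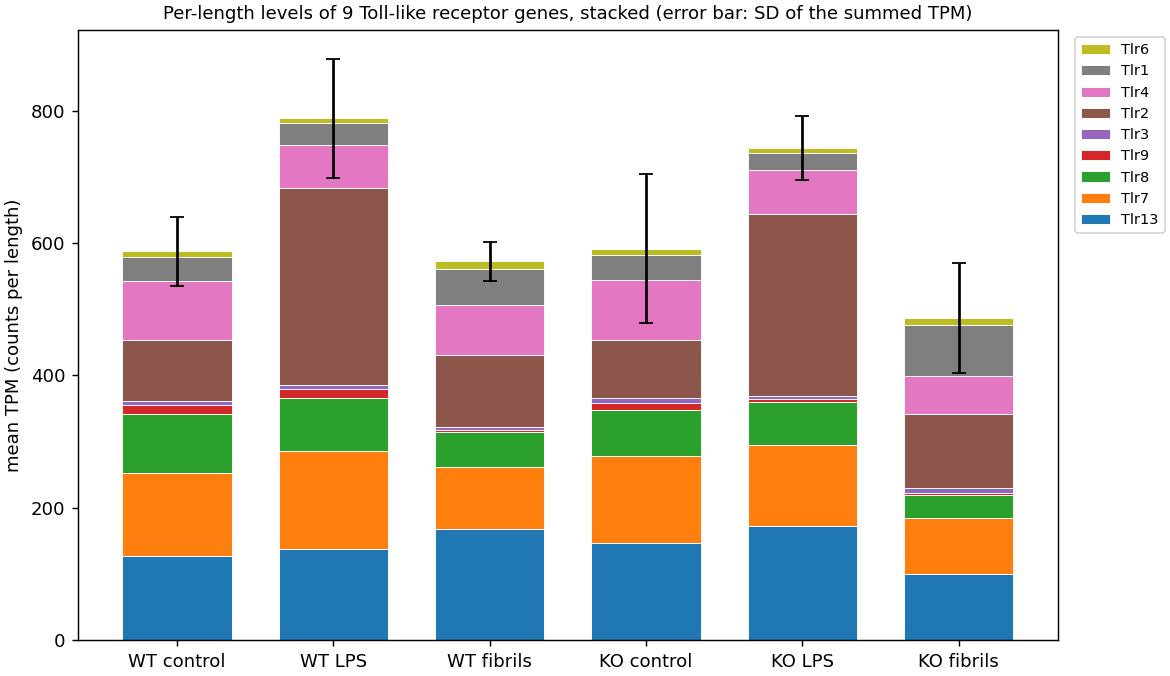
Mean TPM (vertical axis, counts per transcript length) of 9 Toll-like receptor genes stacked for the 6 groups, with the SD of the summed TPM as error bars. The Tlr2 segment is widest in the LPS groups, at 297.6 and 274.7 TPM, and the summed level is lowest in the knockout fibril group, at 487.4 TPM.

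LPS raised Tlr2 in both genotypes and moved little else in the family. In wild type 2 of the 9 tested receptors were called, Tlr2 higher and Tlr4 lower, where 15.1% of all tested genes were called; in knockout only Tlr2 was called, where 13.7% of genes were. The median log2 fold change of the 9 receptors was 0.15 in wild type and -0.11 in knockout, beside -0.02 and -0.04 over all tested genes.

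Tlr2, the lipopeptide receptor (chromosome 3, 83836272 to 83841767), stood at 132.5, 156.9, 203.0, 199.3 and 195.4 CPM in the wild-type controls and from 501.3 over a median of 611.9 to 812.6 CPM in the wild-type LPS libraries. In knockout the controls ran from 107.3 over 165.4 to 204.0 CPM and the LPS libraries held 574.0, 614.7, 564.8 and 528.9 CPM. No LPS library of either genotype overlapped its controls: the lowest LPS value in wild type, 501.3 CPM, lay above the highest control, 203.0 CPM. On the log2 scale the rise was 1.83 ± 0.16 (SE) in both genotypes, a 3.56-fold rise in wild type (adjusted p = 1.33e-09) and a 3.54-fold rise in knockout (adjusted p = 2.27e-09). The difference between the responses, knockout minus wild type, was -0.01 ± 0.22 (adjusted p = 0.999).

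Tlr4 (chromosome 4, 66827584 to 66930284), the receptor for LPS itself, went the other way by a small step. Wild-type controls held 233.9, 211.1, 212.5, 223.1 and 232.0 CPM, and the LPS libraries 159.6 to 202.2 CPM with a median of 182.7, so that the groups did not overlap. The log2 fold change was -0.3 ± 0.1 (adjusted p = 0.0481), and it was lost without any 1 of 21 of the 30 libraries in turn and without the 7 libraries that stand apart, where the fold change was -0.2 (adjusted p = 0.202). In knockout the controls ran from 183.2 over 212.1 to 273.0 CPM and the LPS libraries held 179.8, 179.1, 182.8 and 185.3 CPM. The knockout value of -0.28 ± 0.11 was of like size and was not called (adjusted p = 0.0994). The difference between genotypes was 0.02 ± 0.15.

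The other receptors gave no call with LPS. Tlr7 had 0.41 ± 0.26 in wild type (adjusted p = 0.381), where 5 of 6 LPS libraries lay above all controls, 0.56 and a call without the 7 libraries that stand apart (adjusted p = 0.0359), and 0.07 ± 0.27 in knockout. Tlr13 had 0.26 ± 0.26 and 0.43 ± 0.27, Tlr8 0.08 ± 0.22 and 0.13 ± 0.23, and Tlr6 -0.15 ± 0.14 and -0.11 ± 0.15, in wild type and knockout. Tlr1, the partner of Tlr2, stayed at a mean of 63.5 CPM in both wild-type groups and had -0.38 ± 0.26 in knockout. Tlr3 and Tlr9, the scarcest endosomal receptors, had the widest errors: Tlr3 had 0.21 ± 0.45 and -0.54 ± 0.49, and Tlr9 had 0.15 ± 0.45 in wild type and -1.16 ± 0.51 in knockout (adjusted p = 0.144). Without knockout control replicate 6, the highest control for both, the knockout values were 0.13 for Tlr3 and -0.53 for Tlr9.

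With fibrils the partners of Tlr2, Tlr1 and Tlr6, rose and the endosomal Tlr9 fell in both genotypes. In wild type 3 of 9 receptors were called, where 29.4% of all tested genes were, and in knockout 6 of 9, where 23.7% were. In knockout Tlr2 was also called higher and Tlr4 and Tlr8 lower. The median over the 9 receptors was -0.09 in wild type and -0.47 in knockout, beside -0.05 and -0.04 over all tested genes. Fits of only the groups compared reversed the order of the counts, with 7 receptors called in wild type and 3 in knockout. The counts therefore do not rank the genotypes. The LPS and fibril comparisons within a genotype share their control libraries. Wild-type fibril libraries lay unusually close together for most receptors. Their SD was 3.52 CPM for Tlr13 and 3.81 for Tlr2, against 71.3 to 153.1 and 31.2 to 106.3 in the other groups. For Tlr4 and Tlr6 it was not the smallest. Whether these libraries were separate cultures is not given, which limits what a lack of overlap with controls shows.

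Tlr1 (chromosome 5, 64924679 to 64933563) held 65.4, 63.5, 90.3, 57.5 and 41.1 CPM in the wild-type controls and 101.8, 115.0, 108.4 and 108.2 CPM in the wild-type fibril libraries. All 4 fibril libraries lay above all controls, and control replicate 6 was the lowest of the controls. In knockout the controls ran from 35.6 over 66.3 to 95.8 CPM and the fibril libraries held 95.8, 96.3, 212.3, 114.5 and 188.9 CPM, with replicates 3 and 5 far above the others. Fitted log2 fold changes were 0.77 ± 0.26 in wild type (adjusted p = 0.0298) and 1.12 ± 0.24 in knockout (adjusted p = 0.00103), which is 1.71-fold and 2.17-fold. Leaving out any 1 of 6 libraries ended the wild-type call (control replicates 2, 5 and 6 and fibril replicates 2, 3 and 4), with 0.65 and an adjusted p of 0.0694 without control replicate 6. The wild-type Tlr1 call also ended when libraries were scaled by their totals alone (0.55, adjusted p = 0.143) and with no filter on low counts (adjusted p = 0.0509).

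Tlr6 (chromosome 5, 64952031 to 64960097), the other partner of Tlr2, lies 18467 bases from Tlr1 on the same strand. It held 19.1, 17.2, 17.2, 19.9 and 19.0 CPM in the wild-type controls and 30.6, 31.4, 29.3 and 26.7 CPM with fibrils, again with no overlap. In knockout the controls ran from 15.0 over 18.8 to 27.4 CPM and the fibril libraries held 21.6, 22.4, 29.5, 28.2 and 35.9 CPM, which overlap. The log2 fold change was 0.68 ± 0.15 in wild type (adjusted p = 0.00152), called without each library in turn, and 0.41 ± 0.14 in knockout (adjusted p = 0.0253), lost without any 1 of 5 single libraries. The knockout Tlr6 call also ended in the fit of only the knockout groups compared (adjusted p = 0.194). It ended as well with scaling by library totals alone (adjusted p = 0.0508) and without the 7 libraries that stand apart (adjusted p = 0.129). Tlr1 and Tlr6 encode closely related proteins, and the sources used here do not give how reads that match both were assigned, so the split between them is uncertain. The levels of the 2 genes correlated over the 30 libraries (Pearson r = 0.66, Spearman rho = 0.59, and r = 0.53 without the 2 libraries farthest from the median of Tlr1), as the plot of neighbouring receptor pairs shows.

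**Figure D2:**
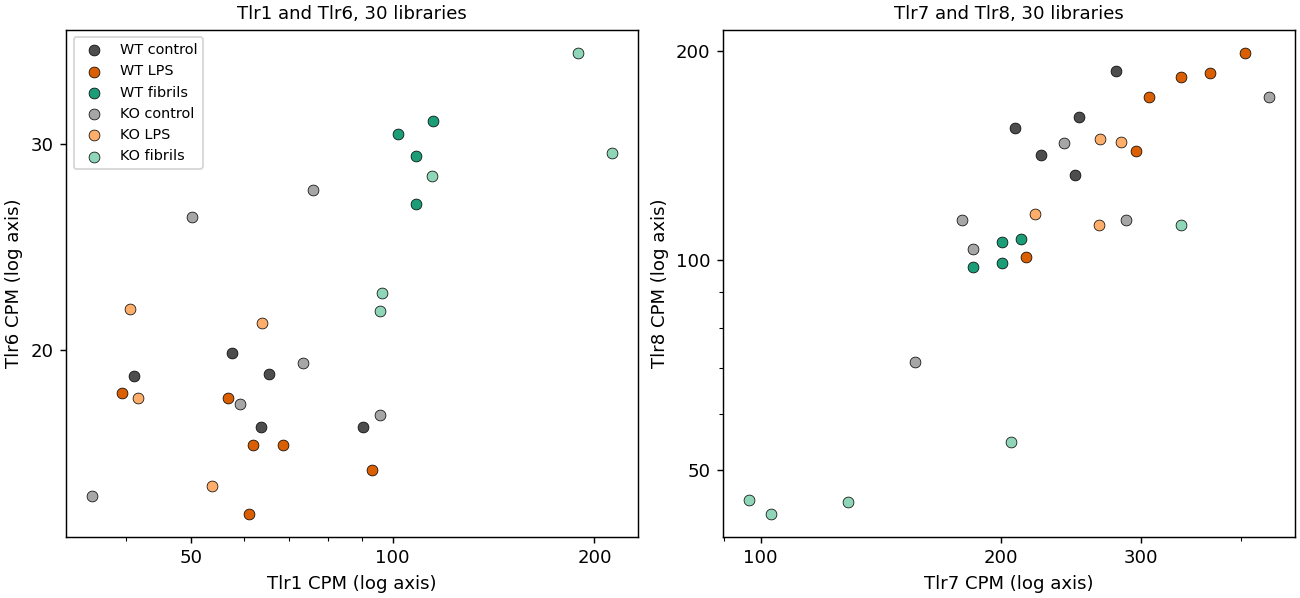
CPM of Tlr1 against Tlr6 and of Tlr7 against Tlr8 (log axes), with 1 point for each of the 30 libraries, coloured by group. The wild-type and knockout fibril libraries lie at the right, from 95.8 CPM of Tlr1 upwards, and 3 knockout fibril libraries lie lowest for both Tlr7 and Tlr8.

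Tlr2 itself was much lower with fibrils than with LPS. Wild-type fibril libraries held 235.0, 227.7, 229.8 and 235.3 CPM, all above the wild-type controls, and knockout fibril libraries held 280.4, 230.7, 229.3, 190.6 and 166.8 CPM, of which 3 lay above all knockout controls. The log2 fold change was 0.39 ± 0.17 in wild type (adjusted p = 0.0835, not called) and 0.45 ± 0.15 in knockout (adjusted p = 0.0324, lost without any 1 of 5 single libraries). In the fit of only the groups compared, Tlr2 lost its knockout call (adjusted p = 0.149) and was called in wild type (adjusted p = 0.0358). Scaling by library totals alone also ended the knockout call (adjusted p = 0.109). Set directly against LPS, Tlr2 was lower with fibrils by -1.45 ± 0.17 in wild type and -1.38 ± 0.17 in knockout (adjusted p = 3.70e-07 and 9.43e-07).

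Tlr4 fell with fibrils in knockout microglia. The knockout fibril libraries held 137.0, 160.6, 103.6, 156.5 and 177.1 CPM, all below the lowest knockout control (183.2 CPM), whereas the wild-type fibril libraries held 208.4, 214.8, 211.8 and 202.2 CPM, within or just under the wild-type controls. The log2 fold change was -0.59 ± 0.1 in knockout (adjusted p = 1.54e-04), called without each library in turn, and -0.09 ± 0.11 in wild type (adjusted p = 0.599). The difference between the responses was -0.5 ± 0.15, with an unadjusted p of 0.0033 and an adjusted p of 0.308, so it was not called.

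Among the endosomal receptors Tlr9 (chromosome 9, 106222598 to 106226883) fell most. Wild-type controls held 17.2, 32.6, 39.1, 34.5 and 26.3 CPM and wild-type fibril replicates 2, 4 and 3 held 8.42, 9.72 and 11.2 CPM, with replicate 1 between the last 2. In knockout the controls ran from 7.46 over 14.9 to 66.9 CPM and the fibril libraries held 5.67, 4.52, 2.45, 6.48 and 24.2 CPM. The wild-type groups did not overlap, with control replicate 6 among the controls at 26.3 CPM, while in knockout 1 fibril library (replicate 5) lay within the controls. The log2 fold change was -1.61 ± 0.53 in wild type (3.05-fold lower, adjusted p = 0.0243) and -1.48 ± 0.48 in knockout (2.79-fold lower, adjusted p = 0.0236). Any 1 of 4 libraries, left out, ended the call in wild type, and any 1 of 5 ended it in knockout, among them knockout control replicate 6. The highest adjusted p were 0.0692 and 0.129, and the knockout fold change ranged from -2.34 to -0.86. In the fit of only the knockout groups compared, Tlr9 had -1.48 and was not called (adjusted p = 0.183).

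Tlr8 (chromosome X, 167242696 to 167264329) and Tlr7 (chromosome X, 167304929 to 167330558) lie 40599 bases apart. Tlr8 held 154.7, 141.5, 132.7, 186.9 and 160.9 CPM in the wild-type controls and 99.2, 106.2, 107.2 and 97.8 CPM with fibrils, with no overlap, and a log2 fold change of -0.6 ± 0.24 that narrowly missed the threshold (adjusted p = 0.0621). It was called under 7 of the 10 alternatives other than leaving out 1 library, among them DESeq2 (adjusted p = 0.0309) and the fit of only these groups (adjusted p = 8.76e-04), and the Tlr8 difference between the genotypes' responses was not called (-0.41 ± 0.32). In knockout the controls ran from 71.4 over 114.2 to 171.9 CPM and the fibril libraries held 45.2, 44.9, 43.2, 54.7 and 112.4 CPM. There 4 of 5 fibril libraries lay below all controls, and the fold change was -1.01 ± 0.22 (2.01-fold lower, adjusted p = 0.00131), called without each library in turn. Tlr7 had -0.28 ± 0.28 in wild type and -0.5 ± 0.26 in knockout (adjusted p = 0.485 and 0.166); without knockout fibril replicate 5 the knockout value was -0.89 and called (adjusted p = 0.00621).

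Tlr13 (chromosome X, 106143204 to 106160493) was not called against control with all libraries in the fit. Wild-type fibril libraries were nearly level at 485.4, 480.0, 477.2 and 479.1 CPM, above the wild-type controls at 294.8, 284.0, 275.1, 340.1 and 447.7 CPM, of which the last is replicate 6. Knockout fibril libraries were spread from 108.0 to 475.6 CPM. The log2 fold changes were 0.55 ± 0.28 and -0.47 ± 0.26 (adjusted p = 0.146 and 0.206). Without knockout fibril replicate 2 the knockout value for Tlr13 was -0.8 and called (adjusted p = 0.0169), and in the fit of only the wild-type groups compared the wild-type value was 0.53 and called (adjusted p = 0.0103). Tlr3 (chromosome 8, 45395665 to 45411080) had -0.15 ± 0.5 and 0.35 ± 0.45, with 1 knockout fibril library at 62.5 CPM and the others at 7.7 to 16.1. An antisense gene overlaps Tlr3, and the sources used here do not say whether the counting used strand, so its counts are uncertain.

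**Figure D3:**
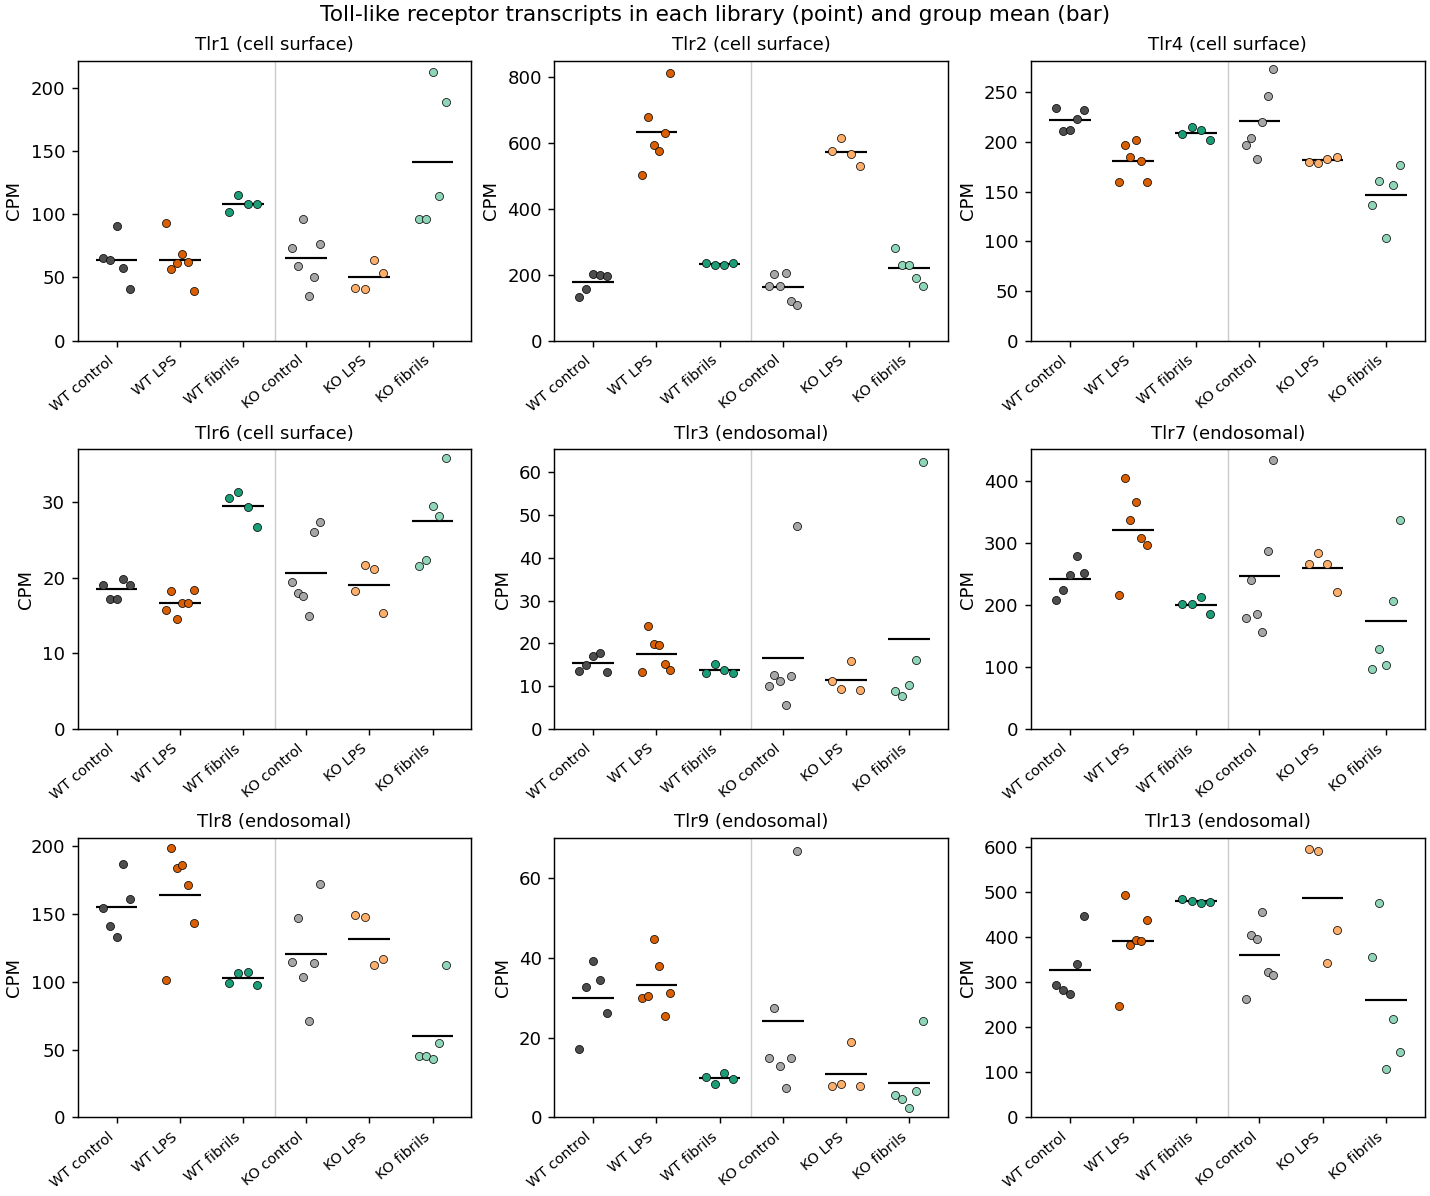
CPM (linear axis from 0) of the 9 tested Toll-like receptors in each library, with points ordered by replicate number within the 6 groups and bars at the group means. Tlr2 stands apart in both LPS groups, Tlr1 and Tlr6 are higher and Tlr9 lower with fibrils, and single knockout libraries stand high for Tlr3 and Tlr9.

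Setting the 2 treatments against each other, 5 of 9 receptors were called in wild type, where 37.1% of all genes were, and 6 of 9 in knockout, where 26.5% were. With fibrils, Tlr1 and Tlr6 were higher and Tlr2 and Tlr8 lower than with LPS in both genotypes. Tlr1 was 1.71-fold higher in wild type and 2.83-fold in knockout, and Tlr8 was lower by -0.68 ± 0.23 and -1.13 ± 0.24 (adjusted p = 0.025 and 8.33e-04). Tlr9 was lower in wild type by -1.76 ± 0.52 (adjusted p = 0.0099) and had -0.33 in knockout without a call. That knockout value was -1.18 without fibril replicate 5 (adjusted p = 0.0655), 0.14 without LPS replicate 3, and -1.19 and called without the 7 libraries that stand apart (adjusted p = 0.0111). Tlr13 (-0.9 ± 0.28, adjusted p = 0.0191) and Tlr4 (-0.31 ± 0.11, adjusted p = 0.0479) were called lower in knockout; the Tlr4 call was lost without any 1 of 20 of the 30 libraries, and the Tlr13 call without any 1 of 4 (LPS replicates 1 and 2 and fibril replicates 3 and 5) and in the fit of only these groups (-0.89, adjusted p = 0.158). The wild-type Tlr8 call was lost without any 1 of 4 libraries (LPS replicate 2 and fibril replicates 1, 2 and 4), with an adjusted p of 0.0623 at most. Tlr7 in wild type had -0.68 ± 0.28 with no overlap and was not called (adjusted p = 0.0531), but was called under 7 of the 10 alternatives other than leaving out 1 library.

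Loss of Lrrk2 left the receptors of control and LPS-treated microglia without a call. In controls 0 of 9 were called, where 0.321% of all genes were, and none had an unadjusted p under 0.05; limma-voom and DESeq2 also called 0. Fold changes (knockout minus wild type) lay between -0.37 for Tlr8 and 0.16 for Tlr6, with a median of 0.03. With LPS 0 of 9 were called, where 1.73% of all genes were, and 1 had an unadjusted p under 0.05. That gene was Tlr9, at 7.84, 8.46, 19.0 and 7.85 CPM in the knockout LPS libraries against 25.5 to 44.8 CPM, with a median of 30.8, in wild type. All knockout LPS libraries lay below all wild-type ones, and the fold change was -1.62 ± 0.52 (adjusted p = 0.0977). Limma-voom and DESeq2 each called it (adjusted p = 0.0495 and 0.0243).

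With fibrils 3 of 9 receptors were lower in knockout, where 8.94% of all tested genes were called and 3.67% were called lower. Tlr4 had 103.6 to 177.1 CPM in knockout against 202.2 to 214.8 CPM in wild type with no overlap, and a fold change of -0.51 ± 0.11 (adjusted p = 0.00983), called without each library in turn and lost when only these 2 groups entered the fit (adjusted p = 0.0721). Tlr8 had 43.2 to 112.4 CPM against 97.8 to 107.2, with knockout replicate 5 alone above the wild-type range, and -0.77 ± 0.24 (adjusted p = 0.0417). Tlr13 had 108.0 to 475.6 CPM against 477.2 to 485.4, and -0.88 ± 0.28 (adjusted p = 0.0495). The Tlr8 call was lost without any 1 of 10 libraries and the Tlr13 call without any 1 of 24. When only these 2 groups entered the fit, 0 of the 9 receptors were called. RLE scaling, library size alone, no filter on low counts and protein-coding transcripts alone each left 1 call. Markers differed between these 2 groups too. Csf1r, the microglial growth factor receptor, was lower in knockout (737.7 to 1386.8 CPM against 1847.6 to 2033.1; -0.9 ± 0.16, adjusted p = 0.00179), and the 8 markers of border and peripheral macrophages summed to 1057.8 to 1239.0 CPM against 1367.8 to 1411.2. Of the markers tested, 5 of 6 for fibroblasts, 5 of 7 for astrocytes, 3 of 3 for neurons and 3 of 10 for the oligodendrocyte lineage were higher in knockout. The part of these markers in the receptor differences was not tested.

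**Figure D4:**
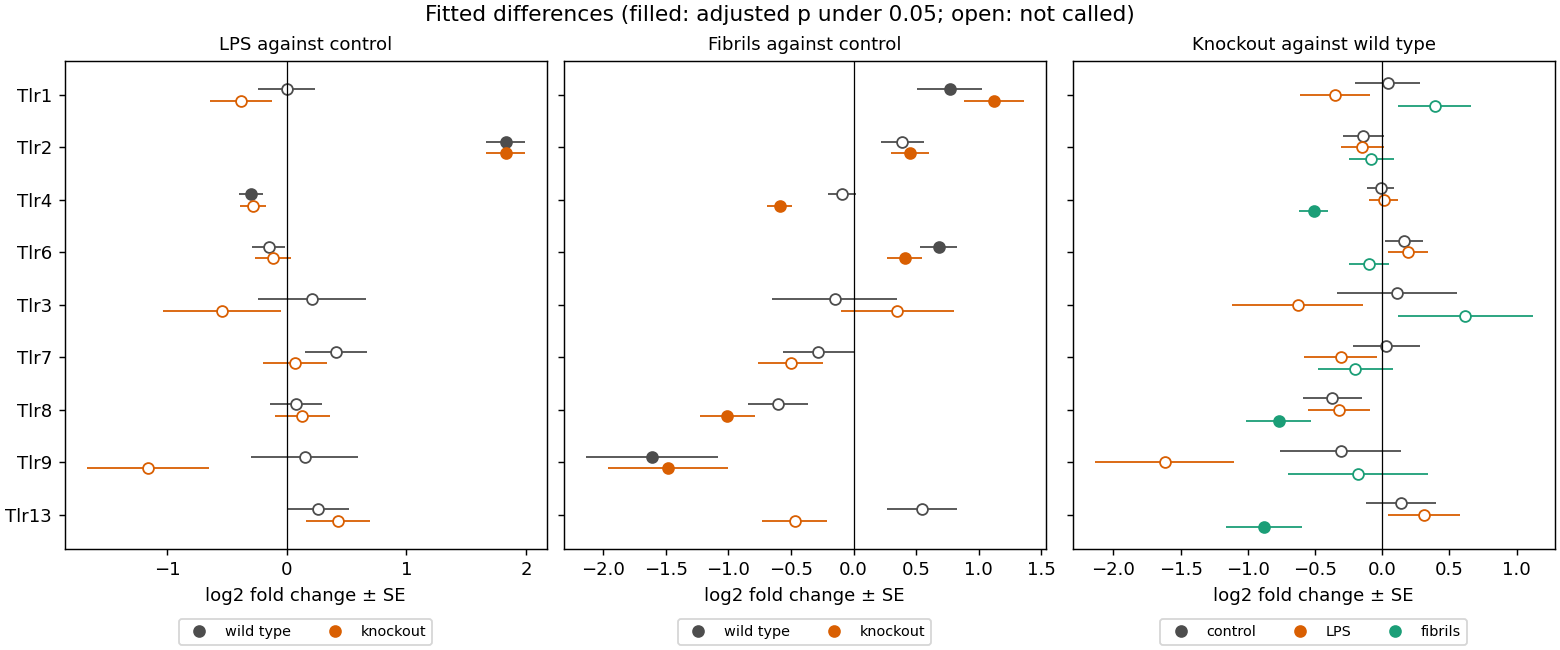
Log2 fold changes (horizontal axis, ± SE) of 9 Toll-like receptors for LPS against control, fibrils against control and knockout against wild type, with filled points called at an adjusted p under 0.05. Tlr2 lies at 1.83 for LPS in both genotypes. In this fit of all 6 groups the called genotype differences are Tlr4, Tlr8 and Tlr13 with fibrils.

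The test of whether a response differed between genotypes called 0 of 9 receptors for LPS and 0 of 9 for fibrils, and 0.0% of all 14346 genes in each. At an unadjusted p under 0.05 there were 0 receptors and 600 genes for LPS, and 2 receptors and 1667 genes for fibrils; limma-voom and DESeq2 also called 0 receptors for both. The 2 receptors were Tlr4 and Tlr13, the latter with a difference of -1.02 ± 0.38 (adjusted p = 0.345). Without the 7 libraries that stand apart Tlr8 was called, with a difference of -0.79 (adjusted p = 0.0316).

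The levels of Tlr7, Tlr8 and Tlr9 varied together from library to library. Over the 30 libraries Tlr7 and Tlr8 correlated with Pearson r = 0.86 (Spearman 0.81), Tlr8 and Tlr9 with 0.81 (0.74) and Tlr7 and Tlr9 with 0.79 (0.72); without the 2 libraries farthest from the median of the first gene r was 0.78, 0.72 and 0.72. Pearson r with Tlr7, Tlr8 and Tlr9 was 0.69, 0.46 and 0.64 for the endosomal Tlr3. It was 0.19, 0.33 and 0.03 for the endosomal Tlr13, and 0.54, 0.63 and 0.55 for the surface receptor Tlr4. Tlr1 and Tlr13 had r = -0.63 (Spearman -0.33, and -0.31 without 2 libraries), which rests on those libraries. The points share group and library composition, so these values are descriptions. Among tested genes, the pattern most like that of Tlr2 was that of Nfkbie, an inhibitor of NF-κB (r = 0.979), then Zfp263 (0.976) and Tnfaip3, which edits ubiquitin chains to restrain NF-κB signalling (0.976). For Tlr7 the closest were Asah2 (0.947), Pld4, an endolysosomal exonuclease (0.92), and Mllt3 (0.915), for Tlr8 Frmd4b (0.937), Hacd4 (0.93) and Pld4 (0.893), and for Tlr9 Ncoa3 (0.938), the lysosomal transporter Slc29a3 (0.923) and Grn, which encodes progranulin (0.921).

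Tlr13 was most like Lipa, the lysosomal acid lipase (0.954), Rab7b (0.9) and Gpr176 (0.899). Tlr6 was most like Tbc1d13 (0.905), Milr1 (0.873) and Tirap, the adaptor that bridges Tlr2 and Tlr4 to Myd88 (0.872), and Tlr1 was most like Arhgap27 (0.924), Fnbp1l (0.923) and Slc39a13 (0.921). Tlr4 had the weakest likeness, to Apobec1 (0.877), Mppe1 (0.86) and Traf3ip3 (0.852), and Tlr3 was most like Trim26 (0.935), Etnk1 (0.923) and Enpp4 (0.916).

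Tlr3 followed Irf7, the interferon regulatory factor that is itself induced by interferon from library to library. The pair was singled out after its values were seen. Irf7 stood at 599.6 CPM in knockout control replicate 6 and 643.7 CPM in knockout fibril replicate 5, against 10.8 to 125.4 and 14.4 to 175.8 CPM in the other libraries of those groups. The same 2 libraries held the highest Tlr3 levels, 47.4 and 62.5 CPM, and the highest Tlr7, Tlr8 and Tlr9 levels of their groups (Tlr7 433.4 and 336.4 CPM, Tlr8 171.9 and 112.4 CPM, Tlr9 66.9 and 24.2 CPM). Over 30 libraries Irf7 correlated with Tlr3 at r = 0.84 (Spearman 0.86), with Tlr7 at 0.66 (0.6), with Tlr8 at 0.49 (0.43), with Tlr9 at 0.48 (0.48) and with Tlr2 at -0.01 (-0.01). Without the 2 libraries farthest from the median of Irf7 on the log2 scale the values were 0.8, 0.59, 0.33, 0.38 and -0.09. Those 2 are the libraries lowest in Irf7, knockout control replicate 4 (10.8 CPM) and knockout fibril replicate 2 (14.4 CPM). The libraries at 599.6 and 643.7 CPM stayed in, and r without them was not computed.

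**Figure D5:**
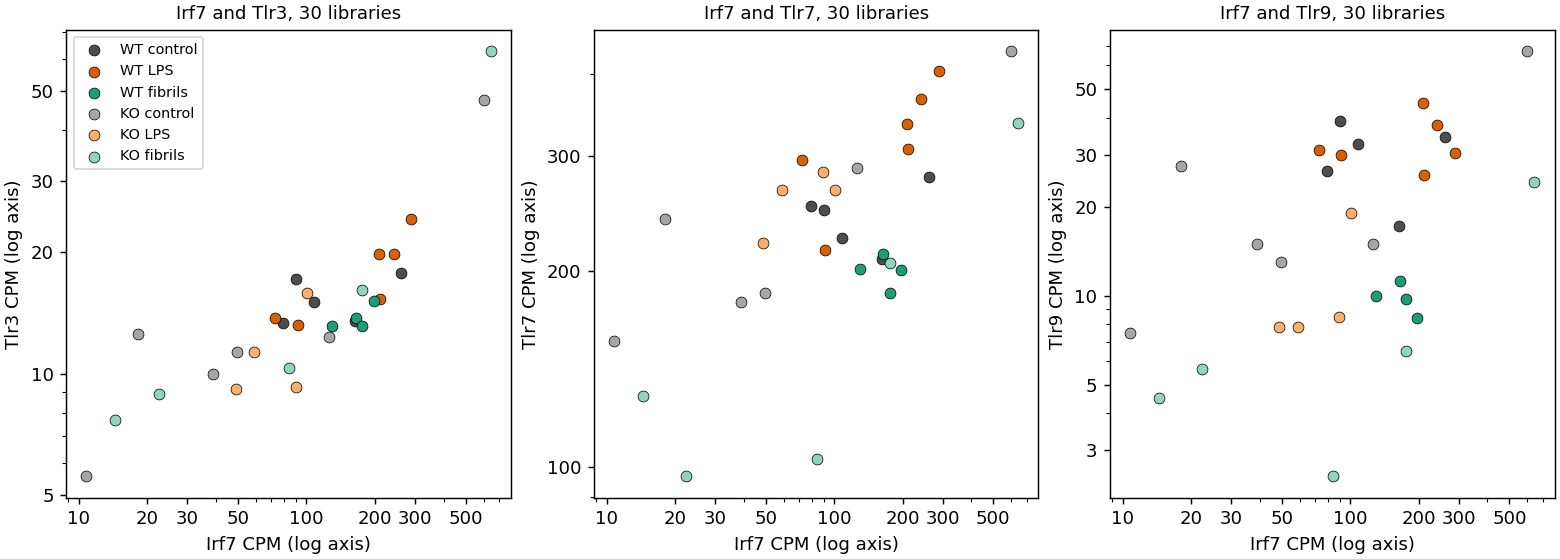
CPM of Irf7 against Tlr3, Tlr7 and Tlr9 (log axes), with 1 point for each of the 30 libraries, coloured by group. The knockout libraries at 599.6 and 643.7 CPM of Irf7 lie at the right of each panel and hold the highest Tlr3 levels, 47.4 and 62.5 CPM.

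The genes that serve the receptors were counted from lists of 49 pathway genes, of which 48 were tested. With LPS 13 were higher and 2 lower in wild type, where 7.1% and 8.03% of all tested genes were, and 11 and 5 in knockout, where 6.36% and 7.35% were. With fibrils the counts were 16 and 3 in wild type, beside 13.8% and 15.6% of all genes, and 16 and 5 in knockout, beside 12.2% and 11.5%. Of the 6 co-receptors and ligand carriers, Cd14, which hands LPS to Tlr4, was higher with LPS (1.49 ± 0.18 in wild type and 1.05 ± 0.19 in knockout, adjusted p = 5.92e-07 and 1.64e-04) and with fibrils (0.71 ± 0.2 and 0.62 ± 0.18, adjusted p = 0.00836 and 0.0109). Of the 10 folding, trafficking and processing factors, Cnpy3, a chaperone of the receptors, was lower with fibrils in both genotypes (-0.36 ± 0.09 and -0.38 ± 0.08). Slc15a4, an endolysosomal transporter, was lower with LPS in both (-0.4 ± 0.09 and -0.31 ± 0.1), and in wild type it was higher with fibrils (0.44 ± 0.1).

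Of the 6 adaptors, Ticam1 was higher in all 4 treatment comparisons, by 1.21 ± 0.16 and 0.81 ± 0.17 with LPS and 0.47 ± 0.17 and 0.59 ± 0.16 with fibrils, in wild type and knockout. Tirap was higher with fibrils (0.87 ± 0.21 and 0.75 ± 0.19) and lower with LPS in knockout (-0.77 ± 0.21). Myd88 was higher with LPS in wild type (0.73 ± 0.2, adjusted p = 0.0101), had -0.09 ± 0.21 in knockout, and was lower in knockout than in wild type with LPS (-1.11 ± 0.22, adjusted p = 0.00774). The difference between the LPS responses of Myd88 was -0.82 ± 0.29 and was not called (adjusted p = 0.992). Of the 15 proximal kinases and ubiquitin ligases, Chuk (IKKα) was higher in all 4 treatment comparisons, by 0.3 to 0.58. Of the 6 tested inhibitors, Tnfaip3 rose with LPS by 4.3 ± 0.21 and 4.21 ± 0.2, and Irak3, which blocks signalling from the Myd88 complex, rose with fibrils by 1.19 ± 0.24 and 1.86 ± 0.22.

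Irak4, the kinase that starts signalling below Myd88, was lower in knockout than in wild type under each treatment. It ranged from 30.4 to 39.7 CPM in wild-type controls, 28.5 to 33.4 with LPS and from 24.8 upwards with fibrils (mean 27.8 ± 2.17, SD), and from 18.6 to 24.3, 14.2 to 16.8 and 16.5 to 18.9 CPM in the knockout groups, so that no knockout library reached a wild-type one. The log2 difference was -0.65 ± 0.08 in controls, -1.0 ± 0.08 in LPS-treated and -0.65 ± 0.08 in fibril-treated microglia (adjusted p = 8.08e-06, 3.99e-08 and 4.18e-05). It was the 1 pathway gene of the 48 called in controls. Irak4 lies on chromosome 15 (94543643 to 94581815), 2727522 bases from Lrrk2, the gene knocked out. Whether the lower Irak4 level follows from the loss of Lrrk2 or from sequence linked to that gene was not tested. With LPS 5 of the 48 were lower in knockout (1.25% of all genes were), namely Irak4, Myd88, Pik3ap1, Rela and Nfkb1, and with fibrils Cd36 and Ctss were lower and Lbp higher.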

How the data were processed

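The RNA was extracted with Trizol and chloroform and sequenced as 100-base single reads on a HiSeq2500 after ribosomal depletion with a stranded total RNA kit, per the labels' protocols. The submitters' processing notes name CASAVA 1.7.1, STAR 2.4.2a and build mm10; the sources used here give neither the counting program nor its strand setting. The deposited values are whole-number counts per transcript, raw as far as the table shows. Of 94647 transcripts, 91320 matched GENCODE M21 and were summed to 38031 genes; the 3327 others held 0.779% to 0.891% of counts and were left out.

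Genes were filtered with edgeR's filterByExpr, scaled by TMM (factors 0.827 to 1.14) and fitted with edgeR 4.0.16 in R 4.3.3, with 1 model of 6 groups and 24 residual degrees of freedom. The common biological coefficient of variation was 0.294. TPM used the lengths of the transcripts counted. Alternatives were limma-voom (limma 3.58.1), DESeq2 1.42.0, other scaling and filters, fits of only the groups compared, a replicate block and each library left out. The text names all 10 receptors and, for each pathway list, its counts and up to 3 called genes. For each tested receptor it names the 3 genes most correlated with it among those ranked under the limits on level and symbol given above. Other names were chosen after their values were seen. The receptors and lists were chosen with earlier results of these data known.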

Additional observations from a re-analysis of the deposited data

Results flagged for a closer look

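The 9 tested receptors in the 6 groups gave 54 sets of 4 to 6 libraries. In 6 of the 54 sets 1 library stood apart from the rest by Dixon's 95% criterion, which chance alone passes in about 1 set in 20. The sets share libraries and are not independent, so the 2 rates cannot be compared directly. All 6 flags were in knockout groups and fell on the highest library of the group. All but Tlr9 in knockout LPS replicate 3 came from knockout control replicate 6 and knockout fibril replicate 5. Tlr3 was at 47.4 CPM in knockout control replicate 6, where the others had 5.57 to 12.5, and at 62.5 CPM in knockout fibril replicate 5, where the others had 7.7 to 16.1. Tlr9 was at 66.9 CPM in knockout control replicate 6 (others 7.46 to 27.4), at 24.2 CPM in knockout fibril replicate 5 (others 2.45 to 6.48) and at 19.0 CPM in knockout LPS replicate 3 (others 7.84 to 8.46). Tlr8 was at 112.4 CPM in knockout fibril replicate 5 (others 43.2 to 54.7).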

How the results depend on the processing

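Tlr2 with LPS kept its direction and its call in both genotypes under each alternative run. Leaving out 1 library at a time gave 1 to 2 called receptors for LPS in wild type and in knockout, 1 to 4 and 3 to 6 for fibrils, 4 to 6 and 4 to 6 for fibrils against LPS, 0 to 0, 0 to 1 and 1 to 3 for knockout against wild type in controls, with LPS and with fibrils, and 0 to 0 for both differences in response. No called receptor reversed its sign. Fitting only the groups compared called 7 receptors for fibrils in wild type, 3 for fibrils and 3 for fibrils against LPS in knockout, and 1 and 0 for knockout against wild type with LPS and with fibrils. Without a filter on low counts 1 receptor was called for LPS in wild type. For knockout against wild type with fibrils, RLE scaling, library size alone, no filter and protein-coding transcripts alone each called 1. For knockout against wild type with LPS, limma-voom and DESeq2 each called 1, and leaving out the 7 libraries that stand apart called 3. Without those 7, 5 were called for fibrils in wild type and 1 for the difference in fibril response. Library size alone called 2 for LPS in knockout, and it moved the median of all genes to -0.23 for LPS and -0.25 for fibrils in wild type, where Tlr4 with LPS had -0.51. With the longest transcript as length, mean TPM of Tlr13 in wild-type controls was 141.1.

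Deviations of same-numbered libraries from their group means correlated with a median of 0.053 over 64 pairs (-0.519 to 0.655). Those of the 309 other pairs had a median of -0.006 (-0.584 to 0.732). Above 0.1 lay 25 of the 64 and 77 of the 309 pairs. These values do not settle whether libraries of different groups shared a culture. With the number as a replicate block, 2 receptors were called for fibrils in wild type and 7 for fibrils against LPS in knockout. Under that block Tlr9 had -1.24 for fibrils in wild type (adjusted p = 0.0647). For Tlr5, at 7 counts at most in a library, no difference was detectable at this depth.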

Other observations

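Tlr11 and Tlr12, the mouse receptors outside the 10 described, had 62 and 44 counts over all libraries and did not pass the filter on low counts. Tlr7 counts came mostly from 1 transcript (Tlr7-201, 77.8%), and Tlr8 counts from Tlr8-202 (74.3%, from 53.7% to 97.5% in single libraries) and Tlr8-201 (22.5%). The main Tlr3 transcript held 86.3% of the gene's counts, from 45.7% to 100.0% in single libraries. The sources used here do not give how reads were divided among transcripts.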
